A study of Mus musculus with 6 samples.

Results

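The genes described here are *Mecom* and 7 other transcription factors of nephron epithelium (*Hnf4a*, *Hnf4g*, *Pax2*, *Pax8*, *Tfcp2l1*, *Esrrg* and *Maf*), which are 8 of the 12125 genes listed in the deposited table. They were picked by name, partly because *Mecom* was lower in every Trf1flox/flox library, so the differences of these 8 genes between genotypes are given as a description with no test. The study deleted *Trf1*, the gene of the telomere-binding protein TRF1 (symbol *Terf1*), in kidney fibroblasts of mice and sequenced sorted kidney cells. In both genotypes a tamoxifen-activated Cre recombinase was driven by the *Col1a2* promoter (Col1a2-CreERT2), and a Cre-dependent reporter gave Katushka fluorescent protein (KFP). The 3 Trf1+/+ control mice and the 3 Trf1flox/flox mice were aged 6 to 8 weeks at the start. The study used males and females, and the sex of each sequenced mouse is not given here. All received tamoxifen by intraperitoneal injection 3 times a week for 8 weeks, so the controls carried the same Cre, reporter and drug. Cells were sorted with antibodies to the integrin CD29 and to KFP, and 500 sorted cells per mouse gave 1 library, but the sources used here do not say which of the sorted populations was sequenced. The labels number no replicates, so replicates 1 to 3 of each genotype are names in deposition order and pair no mice.

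The nephron is a tube of epithelial segments, each kept in its own state by a small set of transcription factors. PAX2 and PAX8, a pair of related paired-domain proteins, start the kidney lineage and stay on in its tubules. HNF4A drives the maturation of the proximal tubule, the segment that takes back most filtered solutes, and HNF4G is its close relative. ESRRG, an orphan nuclear receptor, controls genes of mitochondrial energy metabolism, and MAF is a leucine zipper factor of the proximal tubule. TFCP2L1, a factor of the CP2 family, acts in the distal nephron and collecting duct. *Mecom* encodes the zinc finger proteins MDS1-EVI1 and EVI1, known from blood stem cells and, in the embryonic kidney, from the choice between proximal and distal nephron fates.

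The listed genes held between 10263382 and 12248797 reads per library, and 100% of the deposited values were whole multiples of the value of 1 read. The library labelled Trf1+/+ replicate 1 stood apart. Its median gene had 13.4 normalized counts (reads divided by a size factor of the library), against 118 to 148 in the other 5 libraries, and 12.9% of genes that were well expressed elsewhere (a mean of at least 100 normalized counts) were at 0 in it. This share was 9.01% in Trf1flox/flox replicate 2, the next highest, and between 0.932% and 3.68% in the other 4 libraries. *Terf1* had 0.891, 253 and 235 normalized counts in the controls and 110.0, 7.65 and 12.4 in the Trf1flox/flox libraries. The single *Terf1* read in the library labelled Trf1+/+ replicate 1 went against its label. Such a value was not particular to *Terf1*. *Prdm16* and *Grhl2* were also at 0.891 there, against at least 106 and 54.2 normalized counts in the other 5 libraries. In Trf1flox/flox replicate 1, *Terf1* was well above the other Trf1flox/flox libraries, though below Trf1+/+ replicates 2 and 3, and the reason was not tested. Fold changes that moved by over 1.5 times or changed sign without the library labelled Trf1+/+ replicate 1 are given both ways. The label of the cells as fibroblasts was checked as well. Of 25 fibroblast markers 6 are listed, *Col1a2* had at most 1.78 normalized counts in a library, and *Dcn* was at 0 in 2 libraries and at 97.3 or less in the others. By contrast, all 40 proximal tubule markers and 28 of 30 markers of the loop of Henle and distal tubule are listed. *Umod*, which marks the thick ascending limb of the loop, had between 21896 and 80777 normalized counts. The libraries are therefore described as sorted kidney cells.

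A promoter stretch is shown for *Mecom*, whose level separated the genotypes, and both are shown for *Hnf4a*, because its transcripts start at an upstream and a downstream promoter and the deposited count sums them. The sequences are from RefSeq on build GRCm38.p6, cut to the bases before a transcript start that lie outside annotated exons, and are written 5′ to 3′ on the strand of the gene. For *Mecom*, upstream and downstream name the 2 starts that had a window. Both windows lie inside the annotated gene, whose 5′ end is at chr3:30548008. The window before the downstream start of *Mecom* lies wholly in annotated exons and is not shown. The sequences are in lower case throughout, with no letters marked.
Mecom, upstream start, minus strand, chr3:30509823-30510009: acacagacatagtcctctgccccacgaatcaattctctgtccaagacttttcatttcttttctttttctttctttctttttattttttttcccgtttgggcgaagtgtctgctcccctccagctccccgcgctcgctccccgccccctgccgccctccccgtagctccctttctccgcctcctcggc
Hnf4a, upstream start, plus strand, chr2:163506607-163506807: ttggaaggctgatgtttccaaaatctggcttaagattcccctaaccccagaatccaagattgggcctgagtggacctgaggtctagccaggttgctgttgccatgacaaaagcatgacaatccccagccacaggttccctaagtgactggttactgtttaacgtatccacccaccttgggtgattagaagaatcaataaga
Hnf4a, downstream start, plus strand, chr2:163546943-163547154: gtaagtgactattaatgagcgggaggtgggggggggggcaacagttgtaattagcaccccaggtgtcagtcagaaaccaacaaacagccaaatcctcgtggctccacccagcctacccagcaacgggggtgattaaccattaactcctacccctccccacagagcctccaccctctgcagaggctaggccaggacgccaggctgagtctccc
RefSeq windows of 250 bases before a start were at hand for 6 of the 8 genes (13 windows of 32851 in all), and not for *Hnf4g* and *Maf*. None of the 13 held CAAAGTCCA (HNF4, 0.384% of all windows), TCAAGGTCA (estrogen-related receptors, 0.387%), GCGTGAC (PAX, 1.78%), TGCTGAC (MAF, 3.81%), GACAAGATA (the amino-terminal zinc fingers of EVI1, 0.107%) or the TFCP2L1 motif (CCAG again after a gap of 6 bases, 2.78%) on either strand. The absence of a match says only that these letters are not in these windows.

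*Mecom* (ENSMUSG00000027684, chr3:29951296-30548008 on GRCm38, minus strand) had 3453, 1874 and 1112 normalized counts in Trf1+/+ replicates 1, 2 and 3 and 459.7, 358 and 686 in Trf1flox/flox replicates 1, 2 and 3. Every Trf1+/+ library lay above every Trf1flox/flox library, and the lowest control value was 1.62 times the highest Trf1flox/flox value. The control mean was 2147 ± 1194 (SD, n = 3), which is 4.28 times the Trf1flox/flox mean of 501 ± 168 (SD, n = 3). On the scale of log2(value + 1), on which all fold changes here are given as Trf1flox/flox minus Trf1+/+, the difference was -2.00 with a standard error (SE) of 0.84. Leaving out the library labelled Trf1+/+ replicate 1 gave -1.58, and any 1 library left out gave between -2.39 and -1.58. Scaling the libraries to the same upper quartile gave -1.72. These values come from between 328 and 3877 reads per library, so reads were not scarce for this gene. The libraries were amplified by PCR without molecular identifiers, so the number of RNA molecules behind these reads is unknown. Among the 8 genes, *Mecom* was the only one whose genotypes did not overlap in the deposited values. Of the 9966 genes tested (10 or more normalized counts in 3 or more libraries), 332 (3.33%) were lower without overlap and 533 (5.35%) were higher without overlap, and the rule that picked *Mecom* used this same contrast. After upper quartile scaling these numbers were 221 (2.22%) and 645 (6.47%), *Mecom* still did not overlap, and *Pax2* was then higher without overlap. In RNA of 500 mixed cells, fewer cells of a type and less RNA per cell cannot be told apart. The libraries carry no strand information, and 81 bases of the *Mecom* exons (0.652%) overlap the antisense gene *Mecomos*.

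**Figure D1:**
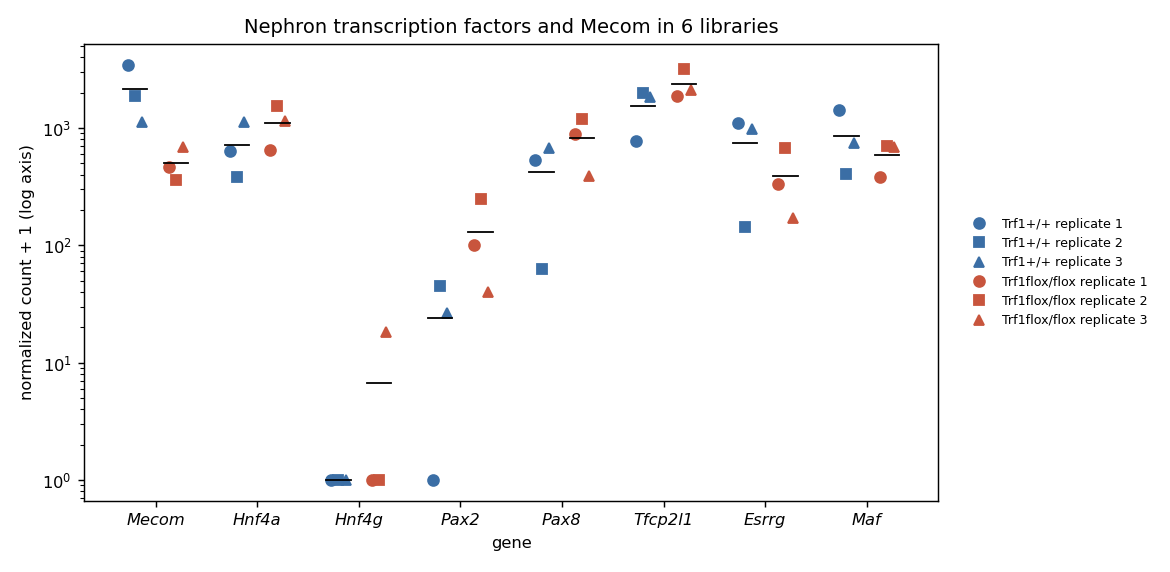
Normalized counts of the 8 genes (value + 1, log axis) in each of the 6 libraries, with Trf1+/+ in blue, Trf1flox/flox in red and black lines at the group means. *Mecom* is the gene whose red points (358 to 686) all lie below its blue points (1112 to 3453), while the other genes overlap or, for *Hnf4g*, are at 0 in 5 libraries.

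*Hnf4a* (ENSMUSG00000017950, chr2:163506808-163572910) had 635, 384 and 1122 normalized counts in the controls and 644, 1541 and 1134 in the Trf1flox/flox libraries. The lowest value was in Trf1+/+ replicate 2, and the genotypes overlapped. The log2 fold change was 0.68 (SE 0.85) and 0.66 without the library labelled Trf1+/+ replicate 1, in each case smaller than the SE. Its relative *Hnf4g* (ENSMUSG00000017688, chr3:3508030-3658052) was at 0 in 5 libraries and had 17.2 normalized counts in Trf1flox/flox replicate 3, from 25 reads (95% exact Poisson interval 11.1 to 25.4 normalized counts, for counting error only). With reads taken as independent counts, a count of 0 allowed up to 2.49 to 3.28 normalized counts in the others (3 reads). *Hnf4g* did not pass the filter on low values and is not among the 7 genes with a fold change.

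The paired-domain genes varied widely within each genotype. *Pax8* (ENSMUSG00000026976, chr2:24420560-24475599, minus strand) had 534, 61.3 and 671 normalized counts in the controls and 884, 1201 and 391 in the Trf1flox/flox libraries. Trf1+/+ replicate 2 was the low library here too, and the other 2 controls lay inside the range of the Trf1flox/flox libraries. Its fold change was 1.41 on the log2 scale (SE 1.20), and lay between 0.32 and 2.03 with a library left out. *Pax2* (ENSMUSG00000004231, chr19:44756045-44837871) had 0, 43.9 and 25.6 normalized counts in the controls and 98.8, 247 and 39.3 in the Trf1flox/flox libraries. The controls reached above the lowest Trf1flox/flox library, and the value of 0 was in the library labelled Trf1+/+ replicate 1. The difference was 3.23 (SE 1.68) with that library and 1.53 without it, so it moved by more than 1.5 times with that library alone.

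*Tfcp2l1* (ENSMUSG00000026380, chr1:118627945-118685168) had 777, 1969.5 and 1823 normalized counts in the controls and 1886, 3169 and 2097 in the Trf1flox/flox libraries. It was lowest in the library labelled Trf1+/+ replicate 1, and the genotypes overlapped because Trf1+/+ replicate 2 exceeded Trf1flox/flox replicate 1. Its log2 fold change was 0.72 (SE 0.81), and 0.29 without the library labelled Trf1+/+ replicate 1.

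*Esrrg* (ENSMUSG00000026610, chr1:187608791-188214885) had 1090.2, 141 and 985 normalized counts in the controls and 329.9, 669.9 and 170.2 in the Trf1flox/flox libraries. The lowest library of all was again Trf1+/+ replicate 2, which put a control below all 3 Trf1flox/flox libraries. *Esrrg* differed by -0.67 on the log2 scale (SE 1.15), between -1.63 and -0.15 with a library left out and -0.15 without the library labelled Trf1+/+ replicate 1. *Maf* (ENSMUSG00000055435, chr8:115682942-115707794, minus strand) had 1413, 403 and 737 normalized counts in the controls and 379, 699 and 693 in the Trf1flox/flox libraries. The library labelled Trf1+/+ replicate 1 was high, and the other 5 lay between 379 and 737, with the genotypes mixed. Its difference of -0.40 on the log2 scale (SE 0.86) turned to 0.06 without that library. Exons of *Pax8*, *Maf* and *Tfcp2l1* overlap other annotated genes over 6.06%, 5.34% and 1.38% of their length.

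Of the 7 genes with a fold change, 4 were above 0 and 3 below, with a median of 0.68 against 0.20 over all 9966 genes tested. Without the library labelled Trf1+/+ replicate 1 these medians were 0.29 and -0.03. The median over all genes was 0.44 after upper quartile scaling, -0.04 with edgeR and -0.05 with DESeq2 on the recovered reads, and the signs of the 7 genes were the same under these scalings. *Mecom*, *Pax2* and *Pax8* had fold changes larger than their SE.

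**Figure D2:**
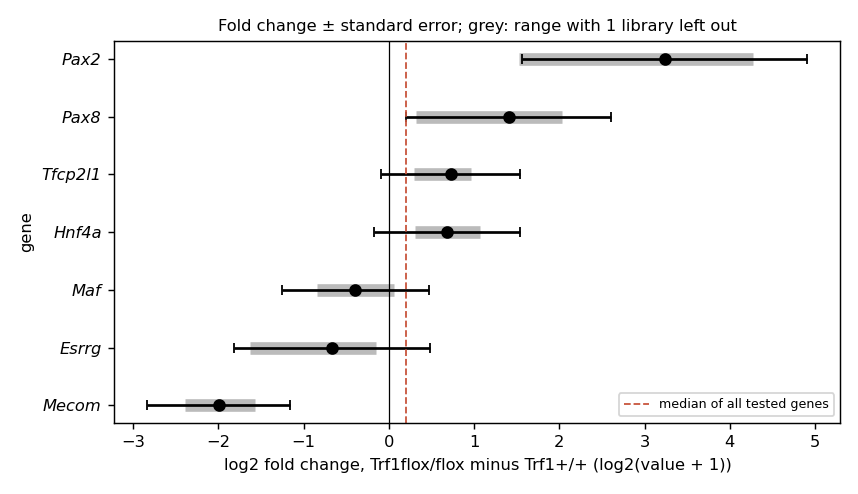
Log2 fold change (Trf1flox/flox minus Trf1+/+, on log2(value + 1)) of the 7 genes that passed the filter, with its standard error (bars) and its range when any 1 library is left out (grey), and the median of all tested genes at 0.20 (dashed). *Mecom* lies at -2.00 with a grey range from -2.39 to -1.58, and *Maf* is the gene whose grey range crosses 0.

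The levels of the genes were compared per kilobase of exon, as a mean over the 6 libraries. *Tfcp2l1* was highest with 207 normalized counts per kb, followed by *Hnf4a* with 188, *Mecom* with 107, *Pax8* with 103, *Esrrg* with 90.9 and *Maf* with 87.4. Each of these overlapped its neighbour in this order over the libraries. *Pax2* followed with 14.0 per kb, its highest library at 45.7 just under the lowest library of *Maf* at 46.0, and *Hnf4g* was last with 1.09. Against the 11888 listed genes with a length, the first 6 lay between the 72.6th percentile (*Maf*) and the 85.5th percentile (*Tfcp2l1*), *Pax2* at the 29.4th and *Hnf4g* at the 2.48th. By group means the place of *Mecom* differed between the genotypes, but each genotype held a library with *Mecom* at place 5. It had 173 ± 96.1 (SD, n = 3) per kb in Trf1+/+ libraries, above *Tfcp2l1* with 161 ± 68.9 (SD, n = 3), and its place among the 8 genes was 1, 2 and 5 in the controls. Only in the library labelled Trf1+/+ replicate 1 was *Mecom* above *Tfcp2l1* (278 against 82.3 per kb). In Trf1+/+ replicates 2 and 3 *Mecom* was below it (151 against 209 and 89.5 against 193). In Trf1flox/flox libraries it had 40.3 ± 13.5 (SD, n = 3) per kb against 253 ± 72.9 (SD, n = 3) for *Tfcp2l1*, and its place was 6, 7 and 5.

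**Figure D3:**
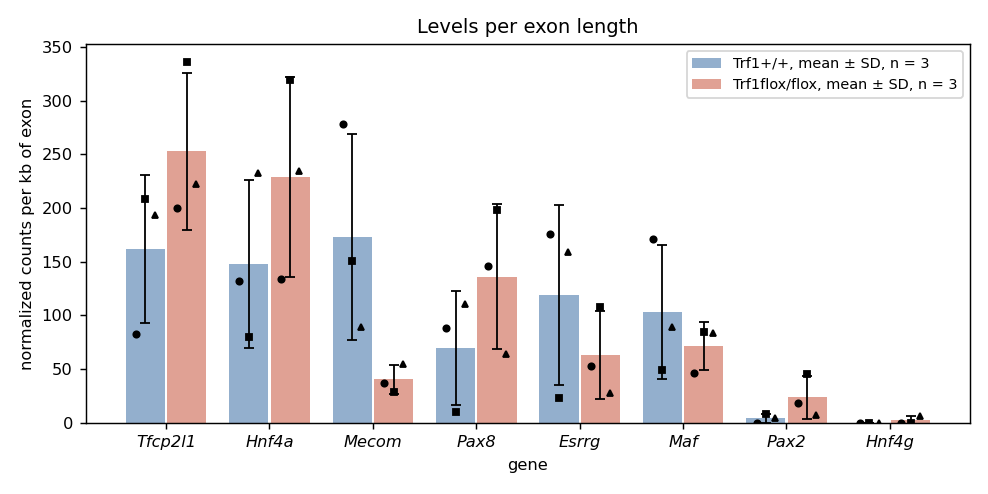
Normalized counts per kb of exon for the 8 genes, ordered by the mean over all libraries, as means with SD (n = 3 for each genotype) and points for single libraries (circles, squares and triangles for replicates 1, 2 and 3). *Mecom* has the highest control mean of the 8 genes (173 per kb) and stands at 40.3 per kb in Trf1flox/flox libraries. Among the controls it lies above *Tfcp2l1* only in the library labelled Trf1+/+ replicate 1 (278 against 82.3 per kb).

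*Mecom* was also set against other genes of the same library, chosen after their values were seen. Such a ratio does not depend on how libraries are scaled, and it takes no account of gene length, so only its difference between libraries is read. As a percentage of *Tfcp2l1*, *Mecom* was 445, 95.2 and 61.0 in the controls and 24.4, 11.3 and 32.7 in the Trf1flox/flox libraries. As a percentage of *Hnf4a* it was 544, 489 and 99.1 in the controls and 71.3, 23.3 and 60.5 in the Trf1flox/flox libraries. These ratios add no support, because *Mecom* was picked as lower in every Trf1flox/flox library and both other genes had higher means there. The genotypes did not overlap in either ratio. They did not overlap either against *Slc12a3*, the sodium chloride cotransporter of the distal convoluted tubule, where *Mecom* was 13.1%, 5.34% and 4.30% in the controls and 2.56%, 2.51% and 3.66% in the Trf1flox/flox libraries. They overlapped against *Calb1*, a calcium-binding protein of the same segment and its neighbours, where the controls lay at 12.6%, 11.3% and 9.79% and the Trf1flox/flox libraries at 4.13%, 26.7% and 8.67%. They also overlapped against the kinase gene *Wnk1*, the homeobox gene *Emx1* and *Pax8*, and did not overlap against *Umod*, *Cdh16* and *Epcam*.

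Relatives and partners of the 8 genes were tested over all genes with limma. Among the 188 tested genes of all lists used here (the 8 genes and *Terf1* left out), 0 had an adjusted p under 0.05 in limma with Benjamini-Hochberg adjustment, as for all 9966 genes (0%). At an unadjusted p under 0.05 there were 3 higher and 1 lower among the 188, against 353 higher (3.54%) and 101 lower (1.01%) over all genes. With DESeq2 on the recovered reads, 58 genes (0.582%) had an adjusted p under 0.05, among them 1 gene of the lists, and edgeR gave 0. Without overlap of the genotypes there were 8 higher (4.26%) and 12 lower (6.38%) genes in the lists, against 5.35% and 3.33% of all tested genes.

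*Prdm16*, the closest relative of *Mecom*, had 0.891, 135 and 106 normalized counts in the controls and 484, 198 and 227 in the Trf1flox/flox libraries. The genotypes did not overlap, in the opposite direction to *Mecom*, with a log2 fold change of 3.21 (SE 1.80), and 1.21 without the library labelled Trf1+/+ replicate 1, where *Prdm16* had 1 read. Its adjusted p in limma was 0.996. Of the 14 PRDM genes in the list 6 are listed and 4 were tested, 3 above 0 and 1 below, with *Prdm10* at 0.51, and 0.06 without the library labelled Trf1+/+ replicate 1. Of 14 genes for corepressors that EVI1 can bind, or for enzymes that work with them, 13 were tested, 10 above 0 and 3 below, and in none were the genotypes apart. *Ctbp2*, which encodes a corepressor that binds EVI1 directly, had a log2 fold change of -1.19 (SE 1.12), and *Ehmt1* and *Wiz*, of a histone H3 lysine methyltransferase complex, had 2.04 (SE 1.93) and 2.35 (SE 1.10). Without the library labelled Trf1+/+ replicate 1, these values were -0.76 for *Ctbp2*, 0.14 for *Ehmt1* and 2.26 for *Wiz*, so the value of *Ehmt1* rested on that library. The median of this list was 0.46 and changed sign with edgeR, with DESeq2 and without the library labelled Trf1+/+ replicate 1.

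Near *Tfcp2l1*, the CP2 genes *Tfcp2* and *Ubp1* were apart in opposite directions. *Tfcp2* had 1.78, 8.29 and 71.9 normalized counts in the controls and 386, 216 and 155 in the Trf1flox/flox libraries, a log2 fold change of 4.26 (SE 1.36, unadjusted p = 0.0196, adjusted p = 0.819 in limma). *Ubp1* had 705, 249 and 176 against 132, 20.8 and 118, a log2 fold change of -2.17 (SE 1.10, adjusted p = 0.996 in limma). Both directions were the same without the library labelled Trf1+/+ replicate 1, at 3.18 and -1.59. *Grhl2*, a grainyhead factor of epithelial junctions, overlapped (3.28, SE 1.84, and 1.47 without that library, where it had 1 read).

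Among 21 PAX genes and partners 8 are listed and 5 were tested. *Tle3*, a Groucho-type corepressor that PAX proteins can recruit, had 1.78, 58.0 and 27.6 normalized counts in the controls and 138, 147 and 131 in the Trf1flox/flox libraries. The genotypes did not overlap, with a log2 fold change of 3.06 (SE 1.29, adjusted p = 0.996 in limma), and 1.77 without the library labelled Trf1+/+ replicate 1. *Paxip1* and *Kmt2d*, parts of the histone methyltransferase complex that PAX2 brings to its targets, overlapped at 2.14 (SE 1.83) and 2.26 (SE 1.56), and stood at 3.32 and 0.71 without that library. In the MAF family 6 of 10 genes were tested, 3 above 0 and 3 below, and *Mafk* (-3.37) and *Nfe2l1* (0.54) overlapped.

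Of 17 cofactors of nuclear receptors such as HNF4A and ESRRG, 16 were tested, and 2 were lower without overlap (12.5%, against 3.33% of all tested genes). *Ppargc1a*, which encodes the coactivator PGC-1α that works with ESRRG on mitochondrial genes, had 2187, 2743 and 2429 normalized counts in the controls and 2164, 789 and 751 in the Trf1flox/flox libraries. Trf1flox/flox replicate 1 lay just under the lowest control, and after upper quartile scaling the genotypes overlapped. The log2 fold change was -1.17 (SE 0.82, adjusted p = 0.996 in limma). *Nr0b2*, which encodes the corepressor SHP, had 1283, 191 and 122 normalized counts in the controls and 0, 0 and 46.9 in the Trf1flox/flox libraries (log2 fold change -6.42, SE 1.86, unadjusted p = 0.0132, adjusted p = 0.673 in limma). It was still lower without overlap when the library labelled Trf1+/+ replicate 1 was left out, at -5.40. *Nrip1* (3.87, SE 2.02) and *Kat2b* (3.54, SE 2.18) overlapped and were at 0 in that library, without which they stood at 1.82 and 1.67.

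A wider list held 50 other transcription factors of nephron epithelium and its progenitors, of which 41 are listed and 38 were tested. Of these, 18 were above 0 and 20 below, with a median log2 fold change of -0.14 against 0.20 for all tested genes. The sign of this median turned after upper quartile scaling (0.13, against 0.44 for all tested genes). It also turned without the library labelled Trf1+/+ replicate 1 (0.06, against -0.03 for all tested genes). In 5 of the 38 (13.2%) the genotypes did not overlap and the Trf1flox/flox libraries were lower (*Emx1*, *Vdr*, *Hoxb7*, *Klf15* and *Tbx2*), against 3.33% of all tested genes, and 0 were higher without overlap, against 5.35%. None of the 5 had an adjusted p below 0.996 in limma. Without the library labelled Trf1+/+ replicate 1 there were 7 lower and 3 higher without overlap, against 8.74% and 9.15% of all genes, and after upper quartile scaling 3 lower (*Vdr*, *Hoxb7* and *Tbx2*) and 3 higher (*Irx1*, *Nr3c1* and *Hoxd3*), against 2.22% and 6.47% of all genes.

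*Vdr*, the vitamin D receptor of the distal nephron, had 2325, 1739 and 1368 normalized counts in the controls and 1061, 682 and 442 in the Trf1flox/flox libraries, a log2 fold change of -1.37 (SE 0.79). *Hoxb7*, a homeobox gene of the collecting duct lineage, had 1224, 335 and 505 against 125, 248 and 202, a log2 fold change of -1.68 (SE 0.87). *Klf15*, a zinc finger factor of metabolism and of podocytes, had 651, 1214 and 872 against 451, 645 and 148. Its highest Trf1flox/flox value of 645 lay just under the lowest control value of 651. *Tbx2* had 279.7, 131 and 134 against 13.7, 114 and 101, and *Emx1* had 918, 1083 and 1065 against 828, 755 and 495. *Ehf*, an ETS factor of epithelia, and *Hoxd3* had the smallest p-values of the list, with log2 fold changes of 5.19 (SE 2.17) and 3.59 (SE 1.51), and the genotypes overlapped in both.

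**Figure D4:**
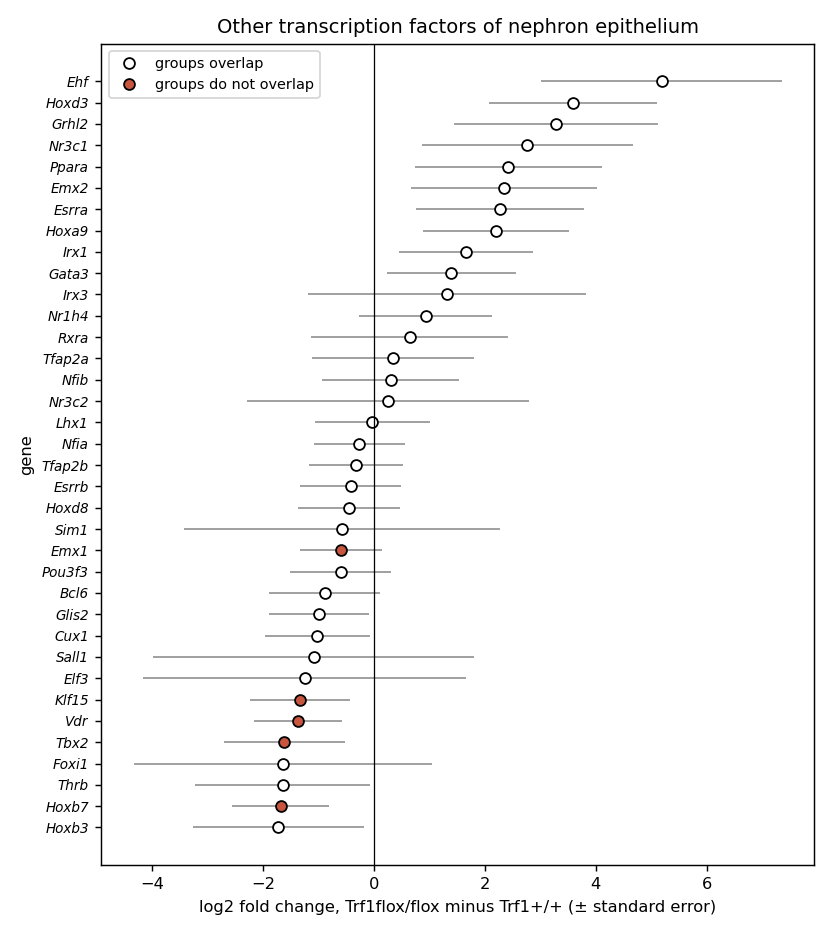
Log2 fold change (Trf1flox/flox minus Trf1+/+) with its standard error for 36 of the tested transcription factors of the wider nephron list, with filled points where the 3 libraries of each genotype do not overlap. The 5 filled points all lie below 0, and 16 of the 36 factors lie above 0.

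Genes of the nephron segments were read beside the 8 factors. The summed normalized counts of the 40 proximal tubule genes were 263115, 65800 and 256349 in the controls and 85106, 205240 and 282731 in the Trf1flox/flox libraries, so the genotypes overlapped. Trf1+/+ replicate 2, the lowest library for *Hnf4a*, *Pax8* and *Esrrg*, also had the lowest proximal tubule sum. The part of the proximal tubule content in the levels of these genes was not tested. Of the 40 genes 27 were above 0 and 13 below (median 0.42), and 4 were higher without overlap (10.0%, against 5.35% of all tested genes). These were the transporters *Slc5a1*, *Slc22a8* and *Slc22a12* and the enzyme *Ggt1*. *Slc5a1*, the high-affinity sodium and glucose cotransporter, had 0, 91.1 and 157 against 249, 2192 and 455. *Slc22a12*, the urate transporter, had 255, 296 and 321 against 369, 664 and 622. *Slc22a8*, an organic anion transporter, had 0.891, 477 and 636 against 1049, 710.3 and 1264, and *Ggt1* and *Slc22a8* overlapped after upper quartile scaling. *Slc13a3* (2.05, SE 1.07) and *Slc4a4* (2.25, SE 1.21) overlapped.

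In the loop of Henle and distal tubule, 16 of the 28 tested genes were above 0 and 12 below (median 0.12, and -0.09 without the library labelled Trf1+/+ replicate 1), and 4 were lower without overlap (14.3%, against 3.33% of all tested genes), namely *Slc12a3*, *Calb1*, *Wnk1* and *Klhl3*. *Slc12a3* had 26373, 35066 and 25899 normalized counts in the controls and 17956, 14271 and 18752 in the Trf1flox/flox libraries, a log2 fold change of -0.77 (SE 0.73). *Calb1* had 27371, 16529.8 and 11368 against 11124, 1341 and 7907, and of the 4 genes it was the one that did not overlap after upper quartile scaling. *Wnk1* had a log2 fold change of -1.32 (SE 0.76). *Klhl3*, the adaptor of the ubiquitin ligase that removes WNK kinases, had -0.91 (SE 0.72). *Mecom* was lower in the same libraries as these 4 genes, and the part of distal tubule content in its level was not tested. The summed loop and distal counts overlapped, from 192865 to 335316 in the controls and from 198046 to 317669 in the Trf1flox/flox libraries.

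Among the collecting duct genes 25 of 29 were tested, 19 above 0 and 6 below (median 0.68, and 0.43 without the library labelled Trf1+/+ replicate 1). *Kit*, which encodes a receptor tyrosine kinase, had 1 read in each Trf1+/+ library and 40, 1798 and 165 reads in the Trf1flox/flox libraries (34.4, 1965 and 114 normalized counts). The ratio of the pooled reads was 633 (exact 95% interval 216 to 3069.9, for counting error only). Its unadjusted p was 0.00485 and its adjusted p 0.400 in limma, and it was the gene of the lists that DESeq2 called, with an adjusted p of 4.67e-06. *Slc26a4*, the pendrin of type B intercalated cells, had 1295, 3168 and 119 against 0, 191 and 53.7, and *Fxyd4* had 0.891, 499 and 1.97 against 1083, 315 and 78.6. Both overlapped. The water channel gene *Aqp2*, a defining marker of principal cells, was at 0 in 3 libraries and at 16844 in Trf1flox/flox replicate 1, and *Tfcp2l1* had 1886 normalized counts there.

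Most markers of fibroblasts, endothelium, podocytes and immune cells are not among the listed genes, while all 5 blood genes are. The summed fibroblast markers (6 of 25 listed) ranged from 8.91 to 293 in Trf1+/+ and from 123 to 189 in Trf1flox/flox libraries, and the 3 that were tested had overlapping genotypes. The log2 fold change was 2.09 (SE 2.37) for *Dcn*, 4.32 (SE 1.76) for *Cspg4* and -1.01 (SE 2.09) for *S100a6*. Without the library labelled Trf1+/+ replicate 1, *Dcn* stood at 1.00 and *S100a6* at -2.80. *Cspg4*, which is also made by pericytes, had an unadjusted p of 0.0484 and an adjusted p of 0.996 in limma. Endothelial markers (3 of 15 listed) summed to 8.87 to 517 and 54.4 to 463, with *Pecam1* at 12.0 or less and a log2 fold change of 3.85 (SE 2.15) for *Esam*. The endothelial genes *Kdr* and *Cdh5* and the pan-leukocyte gene *Ptprc* are not among the listed genes. Immune markers (7 of 17 listed) summed to 317 to 2110.4 and 57.6 to 2723, carried by *Cd74*, and *Fcer1g* overlapped. Podocyte markers (2 of 10 listed) summed to 13.8 to 131 and 0 to 164, and the slit diaphragm gene *Nphs1* is not among the listed genes. The 5 blood genes summed to 238 to 10472 and 121 to 52403, highest in Trf1flox/flox replicate 3, with the globin genes *Hba-a1* and *Hba-a2* at 12286 and 13562 there and *Alas2* at 0 in 3 libraries.

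**Figure D5:**
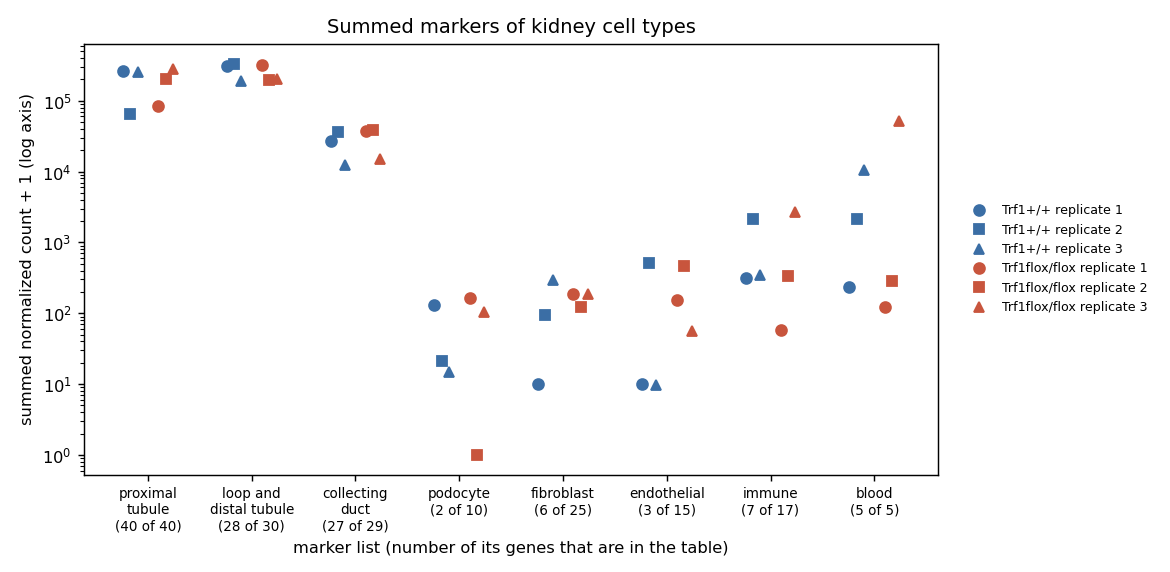
Summed normalized counts (value + 1, log axis) of marker lists of kidney cell types in each of the 6 libraries, with the number of each list's genes that are in the table. The 3 lists of tubule segments lie between 12578 and 335316 in every library, and the fibroblast list between 8.91 and 293.

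The genes whose profile over the 6 libraries was most like that of *Mecom* were found by the root mean square difference of log2(value + 1) after centring each gene on its mean, among tested genes above 0 in all 6 libraries (6774 apart from *Mecom*). This measure is a description over 6 libraries that share depth and cell content with each other. *Pex16*, a gene of peroxisome assembly, was nearest at 0.25, with 808, 441 and 314 normalized counts in the controls and 113, 107 and 264 in the Trf1flox/flox libraries. It was followed by *3830406C13Rik* (0.31), *Cd2ap* (0.32), an adaptor of the podocyte slit diaphragm and other epithelia, *Gmpr2* (0.33) and *BC005624* (0.35). Over the same libraries *Mecom* itself spanned 3.26 on the log2 scale. The nearest of the other 6 factors with a fold change was *Maf*, at 1.00. The 5 genes were the nearest of 6774 and *Maf* the nearest of 6, so no conclusion is drawn from their distances.

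For the other factors, *Proc* (0.23), which encodes the anticoagulant protein C, and *Txn1* (0.23) were nearest to *Hnf4a*. *Tspan7* (0.12) and *Psma5* (0.15) were nearest to *Tfcp2l1*, and *Hnf4a* and *Tfcp2l1* were each other's nearest member at 0.66. *Slc6a6* (0.24), the taurine transporter, and *Gfm2* (0.30) were nearest to *Pax8*, with *Slc6a6* at 61.3 normalized counts in Trf1+/+ replicate 2 as well. *Galk1* (0.31) and *Appl2* (0.38) were nearest to *Pax2*, *Mdm4* (0.37) and *Sepsecs* (0.41) to *Esrrg*, and *Tcea3* (0.17) and *Eci3* (0.18) to *Maf*. *Hnf4a* was the nearest member to *Pax8* (1.00) and to *Maf* (0.75), *Maf* to *Esrrg* (0.85), and *Tfcp2l1* to *Pax2* (1.90).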

How the data were processed

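Libraries from sorted cells were primed with oligo(dT), amplified by PCR and carried neither strand information nor molecular identifiers. Per their methods and processing notes, the authors aligned reads with TopHat2 2.0.10, using Bowtie 1.0.0 and SAMtools 0.1.19, and counted them with HTSeq 0.6.1. They describe the libraries as non-directional but ran TopHat2 with a stranded library type, and the strand setting of the counting is not given in the sources used here, so the share of reads lost or moved between overlapping genes is unknown. The methods name GRCm38 and the processing notes GRCm39, and gene coordinates here are those of GENCODE on GRCm38. The deposited signal is a table of normalized counts (DESeq2 per the processing notes), in which the reads of a gene are divided by 1 size factor per library. Reads were recovered by dividing by the value of 1 read, and 100% of values came out whole (tolerance 0.01). Per-length levels divide by the union of exons, for which 11888 of 12125 listed genes matched by name.

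Differences between 3 Trf1+/+ and 3 Trf1flox/flox libraries were fitted with limma 3.58.1 in R 4.3.3 on log2(value + 1) for the 9966 genes that had 10 or more normalized counts in 3 or more libraries, with Benjamini-Hochberg adjustment over all of them. The fits were tested on simulated data. The study's text gives 3 mice per genotype, which the labels do not name. The p-values set the genotype difference against the spread within the genotypes over these 6 libraries. Genes were named by rule: the 8 members, *Terf1*, from each list the genes whose genotypes did not overlap and the 3 with the smallest p (at most 6), and the nearest genes by profile. Defining markers of cell types were given besides, and *Irx1*, *Nr3c1* and the partners in ratios to *Mecom* were chosen after their values were seen. The members and lists were chosen with earlier results of these data known. Alternatives were pseudocounts of 5 and 0.5, no filter, upper quartile scaling, limma with a trend, edgeR 4.0.16 and DESeq2 1.42.0 on the recovered reads (0 and 58 genes called), and each library left out. Intervals and floors cover counting error only and take each read as an independent count. Reads copied by PCR need not be independent, so the intervals and floors may be too narrow. Values of some genes of the lists are not reported here.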

Additional observations from a re-analysis of the deposited data

How the results depend on the processing

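The log2 fold change of *Mecom* lay between -2.39 and -1.58 with 1 library left out, the latter without the library labelled Trf1+/+ replicate 1. It was below 0 under all 13 alternatives, but *Mecom* was picked as lower in every Trf1flox/flox library. Leaving out a library or changing the pseudocount could therefore not turn its sign. Over all genes, limma and edgeR called 0 genes at an adjusted p under 0.05 under each setting, and DESeq2 on the recovered reads called 58, of which 1 is in the lists of other genes. At an unadjusted p under 0.05, 353 genes were higher in limma, 126 in edgeR and 209 in limma with a trend, and between 235 and 742 with 1 library left out (742 without Trf1+/+ replicate 3). There were 101 lower genes in limma and 167 in DESeq2, and between 68 and 169 with 1 library left out (169 without Trf1flox/flox replicate 3). Of the other 6 factors with a fold change, *Maf* changed sign in 1 alternative, and *Hnf4a*, *Pax2*, *Pax8*, *Tfcp2l1* and *Esrrg* in 0. The log2 fold change of *Terf1* was -1.04 (SE 2.22), and -3.38 without the library labelled Trf1+/+ replicate 1. With edgeR and DESeq2 on the recovered reads it was -1.97 and -1.91. *Terf1* changed sign without Trf1+/+ replicate 2 or 3, up to 0.15. The cause of these shifts was not tested. A leave-one-out fit leaves 2 libraries in an arm. Of the 8 factors, 6 had more than 3 reads in all 6 libraries. *Pax2* was at 0 in the library labelled Trf1+/+ replicate 1, which held the most reads (12248797). *Hnf4g* was at 0 in 5 libraries, and its 25 reads were in Trf1flox/flox replicate 3, which held the fewest (10263382). The reason for these values of 0 was not tested.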
